A study of Mus musculus with 6 samples.

Results

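The 97 genes described here encode subunits of the oxidative phosphorylation complexes of the mouse. They were taken by symbol from the protein-coding genes of the gene counts (*Nduf*, *Sdh*, *Uqcr*, *Cox4* to *Cox8* and *Atp5* genes and the mitochondrially encoded *mt-Nd*, *mt-Co*, *mt-Cytb* and *mt-Atp* genes), and no measured value entered the choice. Of the 38293 genes counted, 84 members lie in the nuclear genome and 13 in the mitochondrial genome. Complex I has 37 nuclear and 7 mitochondrial members, complex II has 4 nuclear members, complex III has 8 and 1, complex IV has 18 and 3, and complex V has 17 and 2. A second Ensembl gene named *Atp5o* was not in the counts, and 12 pseudogenes and other gene types with a matching symbol were left out.

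RNA was sequenced from 3 wt and 3 hnRNP L deficient C57BL/6 embryos at embryonic day 14.5, and each library came from 1 embryo. The hnRNP L deficient embryos carried floxed *Hnrnpl* alleles and a Cre transgene under the Vav promoter, which is active in hematopoietic cells, so that other cells of the embryo keep the gene. Per the methods of the study the cells were sorted lineage-negative, c-Kit-positive fetal liver (FL) cells, whereas 1 of the labels gives whole embryo as the tissue. Summed over 6 muscle and brain genes, reads stood at only 2.53 to 3.76 CPM (read counts relative to a common library size, with TMM factors) in all libraries, with *Myl1* at 0 reads, and 7 markers of lineage-negative c-Kit-positive progenitors at 891 to 1622 CPM.

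Oxidative phosphorylation passes electrons from NADH and succinate through complexes I to IV to oxygen, and the proton gradient formed on the way drives ATP synthesis by complex V. Complex II is made of nuclear-encoded proteins alone, and the other complexes combine subunits from both genomes, so that their assembly requires products of both. Hematopoietic stem cells are known for relying little on this pathway, and their mitochondria become more active as they differentiate.

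*Hnrnpl*, the targeted gene, was counted at 552, 531 and 528 CPM in wt replicates 1 to 3 and, in the same order of replicates, at 242, 288 and 270 CPM in hnRNP L deficient libraries. It fell by 1.01 on the log2 scale (SE 0.09; adjusted p = 0.0072, edgeR), so that about 49.7% of the wt mean remained. The libraries held 55952160 to 76157226 reads on genes, so that 3 reads amount to 0.0402 to 0.0540 CPM, and 39.8% to 44.7% of all reads did not align uniquely and were not counted on genes. wt replicate 2 stood apart in the summed level of 7 granulocyte and monocyte precursor markers, with 7892 CPM against 579 and 1474 CPM in the other wt libraries and 239 to 770 CPM in the hnRNP L deficient libraries. For the members named by rule, results below are given without it where their call changes. Single genes outside the members were not read without it. The 7 progenitor markers summed to 1116, 1622 and 1471 CPM in wt and to 1003, 891 and 899 CPM in hnRNP L deficient libraries, and 4 of them were down-regulated, among them *Cd34* (log2 fold change -2.21) and *Runx1* (-0.95). Summed hepatocyte markers ranged from 108 to 232 CPM in wt and from 21.0 to 71.6 CPM in hnRNP L deficient libraries, macrophage markers from 9.07 to 29.0 and from 1.72 to 5.31 CPM, and erythroid markers from 2506 to 2912 and from 2362 to 3207 CPM. The part of these shifts in the results below was not tested, and in sorted bulk cells fewer cells of a type and less RNA per cell cannot be told apart.

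In the mitochondrial genome the counts themselves set what could be measured. The members in a run from *mt-Co2* to *mt-Nd4l* (*mt-Co2*, *mt-Atp8*, *mt-Atp6*, *mt-Co3*, *mt-Nd3* and *mt-Nd4l*) had at most 64 reads in any library, whereas *mt-Co1*, just before the run, had 338926 to 441034. A stretch of chromosome 1 carries near-identical copies of these genes, annotated as pseudogenes. The start of *mt-Co2*, which encodes a copper-binding core subunit of complex IV, and of its copy *Gm28661* are shown as the first 60 bases of each gene in GRCm38, from chrM:7013-7072 and chr1:24615506-24615565, each read 5′ to 3′ on the strand of its gene.
mt-Co2: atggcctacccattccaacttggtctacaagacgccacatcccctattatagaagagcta
Gm28661: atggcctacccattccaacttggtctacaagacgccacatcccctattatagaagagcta
The 60 bases do not differ at any position. Over whole transcripts the best copy covered 99.6% of *mt-Co2*, 99.6% of *mt-Atp6*, 99.9% of *mt-Co3*, 99.1% of *mt-Nd3* and 99.0% of *mt-Nd4l* at 99.71% identity or more, as well as the first 876 of the 1378 bases of *mt-Nd4* and 483 of the 1545 bases of *mt-Co1*. For *mt-Atp8* no copy was found among the annotated transcripts. Reads that fit 2 places were not counted, so that the levels and differences of these genes are uncertain, and the remaining 5 genes, *mt-Nd1*, *mt-Nd2*, *mt-Nd5*, *mt-Nd6* and *mt-Cytb*, had no such copy.

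**Figure D1:**
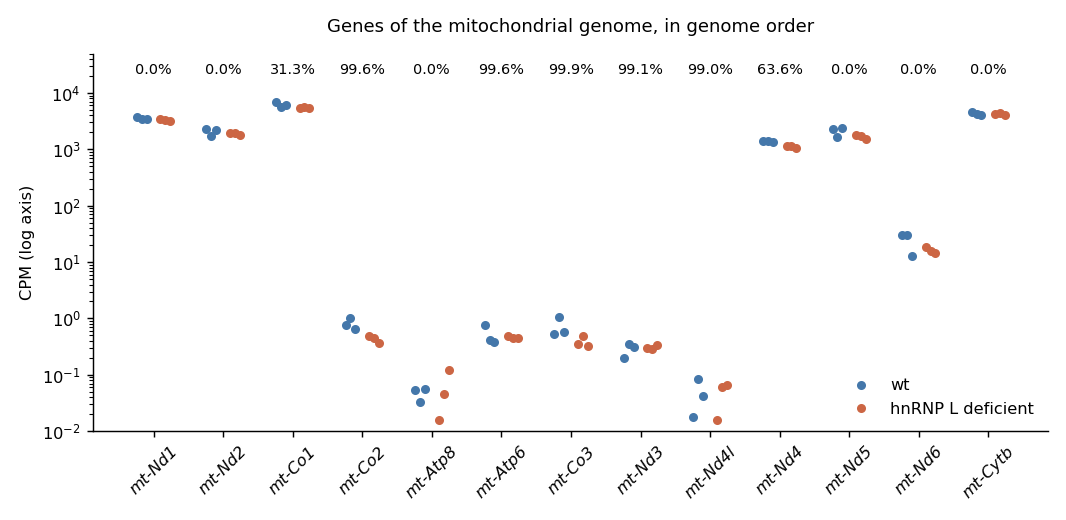
Points give the CPM of the 13 mitochondrially encoded subunit genes in 3 wt and 3 hnRNP L deficient libraries on a log axis, in their order along the genome, and the percentage above each gene is the share of its transcript found in its best annotated nuclear copy. The 6 genes of the run from *mt-Co2* to *mt-Nd4l* sit at or below about 1 CPM, and *mt-Nd6* stands at 13.0 to 30.4 CPM while the other 6 exceed 1000 CPM.

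Per kilobase of transcript, the highest levels in wt were those of *mt-Co1*, the catalytic subunit of complex IV (4026 CPM per kb), *mt-Cytb*, the cytochrome b of complex III (3710 ± 220 CPM per kb, SD, n = 3), and *mt-Nd1*, a membrane subunit of complex I (3693 CPM per kb). The highest nuclear level was that of *Atp5b*, the catalytic beta subunit of the F1 head of complex V, at 1085 ± 48.2 CPM per kb (SD, n = 3). For the other complexes the highest nuclear levels belonged to *Ndufa4* (304 CPM per kb), *Sdhd* (263), *Uqcrh* (301) and *Cox4i1* (465). *Ndufa4* was named for complex I and is counted there by its symbol, although its protein is known today as a subunit of complex IV.

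Of the 14396 genes tested, 19.2% were called at an adjusted p under 0.05, with 9.32% higher and 9.85% lower in hnRNP L deficient libraries. Of the 80 nuclear members tested, 5 were up-regulated and 1 was down-regulated, and of the 11 mitochondrial members tested 1 was down-regulated and 0 were up-regulated (7.5% and 9.09%). At an unadjusted p under 0.05 the mitochondrial members counted 0 higher and 2 lower. The share at this p was 25% of nuclear members and 37.6% of all genes tested. For mitochondrial members DESeq2 also gave 0 higher and 1 lower, where it called 4134 of 20775 genes. The median log2 fold change over nuclear members was 0.05 and 52 of 80 were above 0, whereas over mitochondrial members it was -0.17 with 2 of 11 above 0, and over all genes tested it was -0.03. All 3 hnRNP L deficient libraries lay above all 3 wt libraries for 27 nuclear and 0 mitochondrial members (22.7% of all genes tested), and below them for 6 nuclear and 4 mitochondrial members (22.7% of all genes tested). These 4 were *mt-Nd4*, the 1 called, *mt-Co1*, *mt-Co2* and *mt-Co3*, which all share sequence with chromosome 1. For *mt-Nd1*, *mt-Nd2*, *mt-Nd5*, *mt-Nd6* and *mt-Cytb*, which had no such copy, the groups overlapped.

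These calls depended on single libraries. With wt replicate 3, or any of the 3 hnRNP L deficient libraries left out, 0 members and only 5 to 17 of all genes were called by edgeR. In these 4 fits 11.1% to 28.8% of nuclear members and 24.9% to 33.7% of all genes tested had an unadjusted p under 0.05. Without wt replicate 1 the nuclear count was 12 up and 4 down of 81 tested, beside 4791 of all 14766 genes tested. Without wt replicate 2 it was 8 up and 1 down of 80 tested, beside 3527 of all 14651 genes tested. In the latter fit the mitochondrial count was 0 up and 2 down (*mt-Nd4* and *mt-Nd5*), and the mitochondrial median was -0.28. *Ndufa13* (adjusted p = 0.037, edgeR) and *Ndufb10* (adjusted p = 0.045) were among the nuclear members up in that fit. With total counts in place of TMM the nuclear count was 3 up and 1 down of 80, beside 2817 of all 14396 genes tested. The nuclear median was then -0.02 while the median of all genes moved from -0.03 to -0.10.

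**Figure D2:**
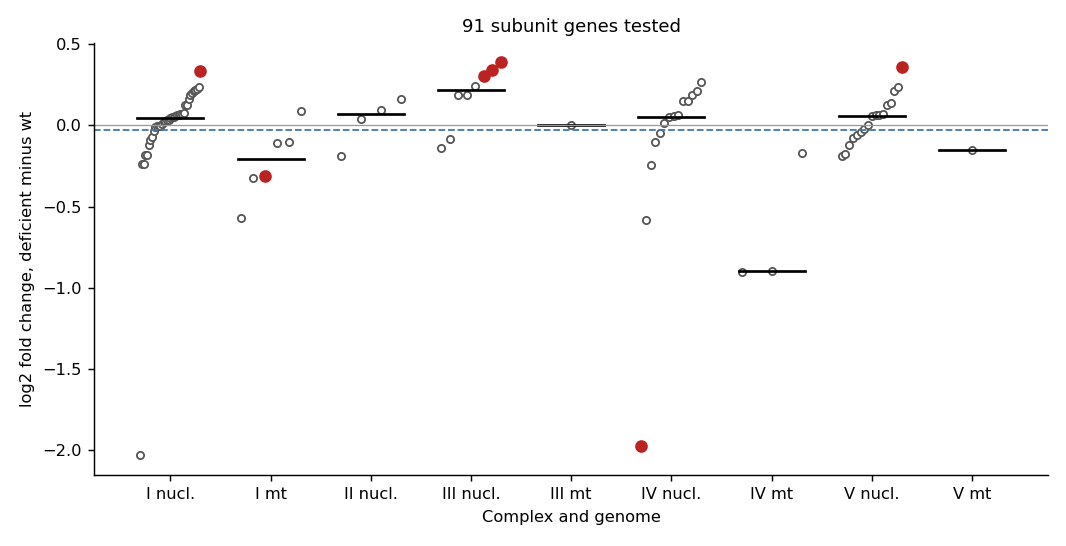
Each point is the log2 fold change of 1 tested subunit gene, hnRNP L deficient minus wt, by complex and genome (nucl., nuclear; mt, mitochondrial), with filled points for the 7 genes called, a black bar for the median of the group and a dashed line for the median of all genes tested (-0.03). The nuclear subunits of complex III have the highest median, 0.22, and the outlying low points are *Ndufa4l2* in complex I and *Cox4i2* in complex IV.

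Complex III, which passes electrons from ubiquinol to cytochrome c, held 3 of the 5 up-regulated subunits. Of its 8 nuclear members 3 were called, all higher, where 9.32% of all genes tested were called higher. For 6 of 8 every hnRNP L deficient library lay above every wt library, beside 22.7% of all genes tested. *Uqcrq*, a small subunit next to cytochrome b, was counted at 82.2, 86.2 and 92.4 CPM in wt and at 113, 117 and 111 CPM in hnRNP L deficient libraries. The 2 groups did not overlap, and it rose by 0.39 on the log2 scale (SE 0.07; adjusted p = 0.019, edgeR). *Uqcrc1*, a core protein facing the matrix, was counted at 345, 333 and 379 CPM in wt and at 465, 437 and 435 CPM in hnRNP L deficient libraries. Its log2 fold change was 0.34 (SE 0.08; adjusted p = 0.032). *Uqcrfs1*, the Rieske iron-sulfur protein, stood at 173, 160 and 184 CPM in wt and at 214, 207 and 216 CPM in hnRNP L deficient libraries, a log2 fold change of 0.30 (SE 0.08; adjusted p = 0.035). For both genes the groups were again apart, with the hnRNP L deficient libraries on top.

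The other nuclear subunits of complex III did not pass the test. *Uqcr10* (log2 fold change 0.24, adjusted p = 0.067), *Uqcr11* (0.19, 0.074) and *Uqcrc2* (0.19, 0.15), the partner of *Uqcrc1* in the core, did not overlap between the groups either, whereas *Uqcrb* and *Uqcrh* had values of -0.14 and -0.09 with overlapping groups. *Uqcrh*, the acidic hinge protein, was counted at 165, 178 and 152 CPM in wt and at 152, 156 and 158 CPM in hnRNP L deficient libraries. *mt-Cytb*, the only mitochondrial subunit of this complex, was level between the groups at 4244 ± 252 CPM in wt and 4259 ± 141 CPM in hnRNP L deficient libraries (SD, n = 3), with a log2 fold change of 0.01 (SE 0.08). *Cyc1*, the cytochrome c1 of complex III, has a symbol outside the rule. It was counted at 259, 231 and 263 CPM in wt and at 371, 349 and 357 CPM in hnRNP L deficient libraries, and it rose by 0.52 on the log2 scale (SE 0.08; adjusted p = 0.015). The median over the 8 nuclear members of complex III was 0.22, and it ranged from 0.11 to 0.28 over the 15 alternatives.

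**Figure D3:**
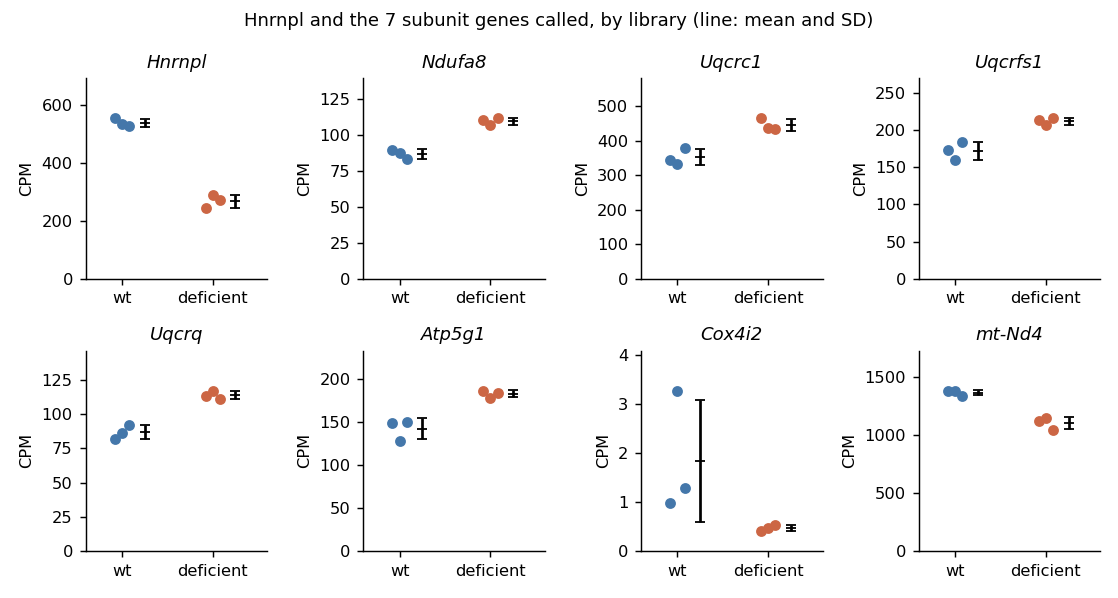
CPM of *Hnrnpl* and of the 7 subunit genes called, with 1 point per library, 3 wt libraries on the left and 3 hnRNP L deficient libraries on the right of each panel, and the mean ± SD beside them on axes that start at 0. In each of the 8 genes the 2 groups do not overlap, and *Cox4i2* has a wide wt spread with 1 library at 3.27 CPM.

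Complex I, the NADH dehydrogenase at the entry of the chain, had 1 nuclear subunit called among 37. *Ndufa8*, an accessory subunit on the side of the intermembrane space, was counted at 89.9, 87.6 and 83.4 CPM in wt and at 110, 107 and 112 CPM in hnRNP L deficient libraries. It rose by 0.33 on the log2 scale (SE 0.06; adjusted p = 0.021). *Ndufs1*, the large iron-sulfur subunit, stood at 282, 221 and 253 CPM in wt and 294, 296 and 301 CPM in hnRNP L deficient libraries (log2 fold change 0.24, adjusted p = 0.13). The lowest value of the complex was that of *Ndufa4l2*, the paralog of *Ndufa4* that is known to be induced in hypoxia. It was counted at 1.03, 6.04 and 26.5 CPM in wt and at 1.88, 4.25 and 2.09 CPM in hnRNP L deficient libraries, so that the wt libraries ranged more widely than the groups differed (log2 fold change -2.03, SE 1.12, adjusted p = 0.24). With 1 library left out its value ranged from -0.36, without wt replicate 3, to -2.57, without wt replicate 1, where it was called (adjusted p = 0.040; 0.040 to 0.77 over the 6 fits). *Ndufa4* stood at 171, 210 and 176 CPM in wt and at 161, 164 and 166 CPM in hnRNP L deficient libraries, a difference of -0.18 (adjusted p = 0.19).

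Of the mitochondrial subunits of complex I, *mt-Nd4* was the 1 that was down-regulated. It was counted at 1378, 1384 and 1343 CPM in wt and at 1123, 1145 and 1047 CPM in hnRNP L deficient libraries, and it fell by 0.31 on the log2 scale (SE 0.08; adjusted p = 0.034). The groups did not overlap, but the first 876 bases of this gene are among those shared with chromosome 1, and with no filter on low counts its adjusted p was 0.092. *mt-Nd5*, its neighbour, stood at 2280, 1648 and 2343 CPM in wt and at 1760, 1697 and 1547 CPM in hnRNP L deficient libraries. Its log2 fold change was -0.33 (adjusted p = 0.15), and without wt replicate 2, the lowest wt library, -0.47 (adjusted p = 0.010; over the 6 fits with 1 library left out 0.010 to 0.38). *mt-Nd1* (-0.10) and *mt-Nd2* (-0.11) had adjusted p of 0.37 and 0.55, and *mt-Nd2* was at -0.22 (adjusted p = 0.073) without wt replicate 2, over 0.073 to 0.90 in the 6 fits with 1 library left out. *mt-Nd6*, the only member on the other strand of the mitochondrial genome, overlaps the end of *mt-Nd5*, and it was counted at 30.4, 29.6 and 13.0 CPM in wt and at 18.7, 15.8 and 14.6 CPM in hnRNP L deficient libraries (log2 fold change -0.57, adjusted p = 0.23). *mt-Nd3*, with 11 to 25 reads per library, had a value of 0.09 (SE 0.40). *mt-Nd4l*, with 1 to 5 reads, was below the filter and not tested.

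None of the 4 subunits of complex II, the succinate dehydrogenase that also serves the TCA cycle, was called. By edgeR 1 of the 4 had an unadjusted p under 0.05, beside 37.6% of all genes tested. By DESeq2 0 were called, beside 4134 of 20775 genes. By limma-voom with sample weights 2 (*Sdhc* and *Sdhd*) were called, beside 5288 of 14396 genes. *Sdhc*, 1 of the membrane anchors, was counted at 133, 137 and 151 CPM in wt and at 121, 127 and 122 CPM in hnRNP L deficient libraries (log2 fold change -0.19, SE 0.07, adjusted p = 0.11). *Sdhd*, the other anchor, was counted at 338, 316 and 317 CPM in wt and at 370, 356 and 359 CPM in hnRNP L deficient libraries (0.16, SE 0.07, adjusted p = 0.14). For both anchors the groups did not overlap, in opposite directions. The flavoprotein *Sdha* had a log2 fold change of 0.04 (adjusted p = 0.70), and the iron-sulfur subunit *Sdhb* of 0.10 (adjusted p = 0.31). For *Sdhb* the groups did not overlap either, at 142, 134 and 142 CPM in wt and 153, 146 and 148 CPM in hnRNP L deficient libraries. Such separation was found for 22.7% of all genes tested in each direction.

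Complex IV, cytochrome c oxidase, has nuclear subunits with alternative isoforms for different tissues. The common isoforms dominated in these cells. *Cox4i1* was counted at 346 ± 9.58 CPM in wt and at 400 ± 6.43 CPM in hnRNP L deficient libraries (SD, n = 3; log2 fold change 0.21, adjusted p = 0.071, and 0.23 with adjusted p = 0.041 without wt replicate 2, over 0.041 to 0.24 in the 6 fits with 1 library left out), and its hypoxia-responsive alternative *Cox4i2* at 0.972, 3.27 and 1.28 CPM in wt and at 0.404, 0.459 and 0.536 CPM in hnRNP L deficient libraries. *Cox4i2* fell by 1.97 on the log2 scale (SE 0.50; adjusted p = 0.037), from 54, 196 and 93 reads to 26, 30 and 40 reads. Without wt replicate 2, which had the most, the value was -1.27 (adjusted p = 0.037; over the 6 fits with 1 library left out 0.017 to 0.13). *Pdgfrb*, a receptor of pericytes and stroma, went from 7.26, 15.7 and 12.5 CPM in wt to 2.53, 2.56 and 1.96 CPM in hnRNP L deficient libraries, and 6 markers of endothelium and stroma summed to 13.2 to 20.9 CPM in wt and to 9.01 to 10.1 CPM in hnRNP L deficient libraries, with 0 of the 6 at 0 reads, 1 of them called higher (*Col1a2*) and 1 lower (*Pdgfrb*). Without *Pdgfrb* the other 5 summed to 5.20 to 5.92 CPM in wt and to 6.48 to 8.16 CPM in hnRNP L deficient libraries, so that the lower sum rested on *Pdgfrb*. Their part in the value of *Cox4i2* was not tested.

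Most of the other alternative isoforms were nearly absent. *Cox6a2* had 0, 19 and 14 reads in wt and 0, 2 and 1 in hnRNP L deficient libraries and was not tested, whereas *Cox6a1* stood at 193 ± 18.7 CPM in wt (log2 fold change 0.05). *Cox7a1* was counted at 0.558, 0.667 and 0.385 CPM in wt and at 0.202, 0.520 and 0.348 CPM in hnRNP L deficient libraries (-0.58, adjusted p = 0.39), against 142 ± 14.6 CPM in wt for *Cox7a2* (0.06) and 78.7 ± 8.93 CPM for *Cox7a2l* (-0.24, adjusted p = 0.11). *Cox7b2*, *Cox8b* and *Cox8c* had 0 reads in all 6 libraries, where 3 reads, the upper limit that a count of 0 allows, correspond to at most 0.0540 CPM. Their common counterparts *Cox7b* and *Cox8a* stood at 177 ± 11.7 and 213 ± 14.9 CPM in wt (SD, n = 3), with log2 fold changes of -0.10 (adjusted p = 0.35) and 0.27 (adjusted p = 0.063). *Cox6b2*, known as the testis isoform, was counted at 38.3, 41.4 and 51.6 CPM in wt and at 46.4, 51.4 and 51.4 CPM in hnRNP L deficient libraries (0.18, adjusted p = 0.30), beside 204 ± 3.64 CPM in wt for *Cox6b1* (0.06).

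All 3 mitochondrial subunits of complex IV were lower in every hnRNP L deficient library than in any wt library without passing the test. The same separation was found for 22.7% of all genes tested. *mt-Co1* stood at 6937, 5652 and 6070 CPM in wt and at 5448, 5646 and 5474 CPM in hnRNP L deficient libraries (log2 fold change -0.17, SE 0.09, adjusted p = 0.23), and the nearest libraries of the 2 groups stood at 5652 and 5646 CPM. *mt-Co2* had 42, 60 and 47 reads in wt and 31, 29 and 27 in hnRNP L deficient libraries (-0.90, adjusted p = 0.099), and *mt-Co3* had 30, 64 and 42 reads against 23, 32 and 24 (-0.90, adjusted p = 0.16). Both lie in the run shared with chromosome 1. With 1 library left out *mt-Co1* ranged from -0.24 (without wt replicate 2) to -0.08 (without wt replicate 1), and *mt-Co3* from -1.08 (without hnRNP L deficient replicate 2) to -0.52 (without wt replicate 2).

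In complex V, the ATP synthase, 1 of 17 nuclear subunits was called. *Atp5g1* encodes the c subunit of the membrane ring, a protein that *Atp5g2* and *Atp5g3* also encode with different import sequences. It was counted at 149, 128 and 150 CPM in wt and at 187, 179 and 184 CPM in hnRNP L deficient libraries, and it rose by 0.36 on the log2 scale (SE 0.08; adjusted p = 0.029). The pseudogene *Gm10039* matches 69.0% of its transcript and had 1092 to 1810 reads, compared to 7690 to 13762 on *Atp5g1*, so that the split of reads between them is uncertain. *Atp5g3*, the most abundant of the 3 genes, was counted at 439, 433 and 388 CPM in wt and at 452, 465 and 472 CPM in hnRNP L deficient libraries (0.14, adjusted p = 0.24), and *Atp5g2*, whose whole transcript is present in the pseudogene *Gm10175*, had a value of -0.04. Over the 5 subunits of the F1 head the median was 0.12, with *Atp5b* at 2099, 1979 and 2161 CPM in wt and 2458, 2369 and 2405 CPM in hnRNP L deficient libraries (0.21, SE 0.08, adjusted p = 0.085). Over the 4 subunits of the peripheral stalk, which holds the head still, the median was 0.00, and over the 5 other nuclear members it was -0.02. *mt-Atp6*, the channel-forming subunit, had 25 to 42 reads per library (-0.15, SE 0.39), and *mt-Atp8*, with 1 to 9 reads, was not tested.

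Summed over members, the nuclear genome gave 13922, 13903 and 13689 CPM in wt and 15051, 14831 and 15054 CPM in hnRNP L deficient libraries. The hnRNP L deficient mean was 108% of the wt mean with no overlap. *Atp5a1* and *Atp5b* made up 25.4% to 28.0% of this sum, and without them the hnRNP L deficient libraries still lay above the wt libraries, at 107% of the wt mean. By complex the hnRNP L deficient mean was 105% of wt for complex I, 104% for complex II, 116% for complex III, 107% for complex IV and 110% for complex V. In none of the 5 did the groups overlap, but this was read with the TMM factors only. With total counts in place of TMM the median log2 fold change of nuclear members was 0.15 for complex III. It was -0.02 for complex I, -0.001 for complex II, -0.02 for complex IV and -0.01 for complex V. The mitochondrial genome gave 21177, 17959 and 19497 CPM in wt and 18056, 18093 and 17169 CPM in hnRNP L deficient libraries, which overlapped with wt replicate 2 as the lowest wt library. As shares of the reads on genes, with no TMM factors, nuclear members held 1.38% to 1.45% in wt and 1.45% to 1.48% in hnRNP L deficient libraries. The nearest nuclear shares were 1.449% in wt replicate 2 and 1.451% in hnRNP L deficient replicate 1, so that on this scale the groups nearly touched. Mitochondrial members held 1.87% to 2.10% in wt and 1.68% to 1.78% in hnRNP L deficient libraries, which did not overlap on this scale.

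The ratio of the mitochondrial to the nuclear sum does not depend on how libraries are scaled. It was 1.52, 1.29 and 1.42 in wt and 1.20, 1.22 and 1.14 in hnRNP L deficient libraries, with means of 1.41 ± 0.12 and 1.19 ± 0.04 (SD, n = 3). The groups did not overlap, and the hnRNP L deficient mean was 84.0% of the wt mean. For the 5 mitochondrial genes with no annotated nuclear copy the ratio to the nuclear sum was 0.924, 0.785 and 0.883 in wt and 0.763, 0.762 and 0.707 in hnRNP L deficient libraries, which also did not overlap. Since libraries were prepared from polyadenylated RNA, these values speak of polyadenylated transcripts. The 12S ribosomal RNA *mt-Rnr1*, which is no member, was counted at 223, 255 and 491 CPM in wt and at 208, 183 and 188 CPM in hnRNP L deficient libraries, and the 16S ribosomal RNA *mt-Rnr2* at 410, 327 and 784 CPM in wt and at 466, 385 and 360 CPM in hnRNP L deficient libraries. wt replicate 3 was well above the other wt libraries for both, and the groups overlapped for *mt-Rnr2*. Their part in these results was not tested.

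**Figure D4:**
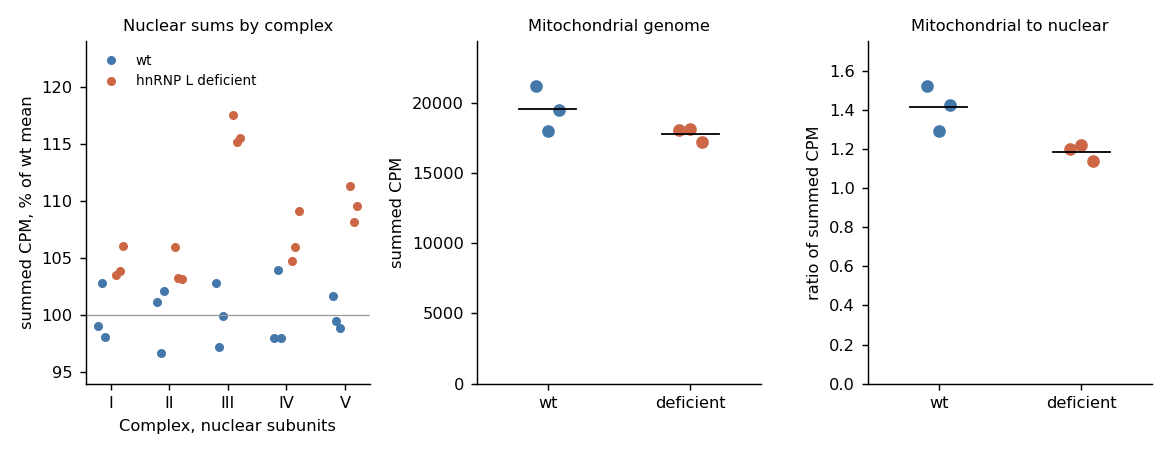
Left, summed CPM of the nuclear subunits of each complex as a percentage of the wt mean (on an axis that does not start at 0), middle, summed CPM of the 13 mitochondrial genes, and right, the ratio of the mitochondrial to the nuclear sum, with 1 point per library and lines for the means of 3. With TMM-scaled CPM the hnRNP L deficient points lie above the wt points in all 5 nuclear sums, and they lie below them in the ratio.

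The wt embryos varied more among themselves than the hnRNP L deficient embryos. The coefficient of variation across 3 libraries had a median of 8.16% in wt and 2.47% in hnRNP L deficient libraries over the 80 nuclear members tested, and it was larger in wt for 75 of them. The same held for 81.7% of all genes tested, with medians of 16.2% and 6.53%, and for 6 of the 7 mitochondrial members above 10 CPM. Among genes tested with a mean of 20 to 500 CPM it held for 87.7%, with medians of 10.9% and 3.86%. wt replicate 3 was the wt library farthest from the median of the 3 for 40 of the 80 nuclear members, and wt replicate 2 was the highest for 43. These 2 counts were made over nuclear members only, so they are not set beside a share of all genes.

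Exon usage of the members was read from 5 libraries, the 3 wt and hnRNP L deficient replicates 2 and 3. Of 176996 exon bins tested 0.0288% were called, and of the 750 bins in 77 members 0 were called by edgeR, with 19 (2.53%, beside 1.03% of all bins tested) at an unadjusted p under 0.05. limma called 1 bin, bin 1 of *Sdha*, with 1860, 2567 and 2519 reads in wt and 1760 and 1773 in hnRNP L deficient libraries (adjusted p = 0.0032, and 1.00 by edgeR). The smallest p by edgeR was that of bin 5 of *Ndufa13* (0.00061, adjusted p = 0.72).

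Nuclear genes of this pathway are known targets of NRF1, of the ETS factor GABPA and of YY1. RefSeq promoter windows in GRCm38.p6, from 250 bases before to 50 bases after the start of a gene, were found for 66 of the 84 nuclear members (71 windows) and searched on both strands. The NRF1 core GCATGCGC was present in 14.1% of members' windows, in 2.71% of all 32851 windows and in 3.51% of the 21262 windows of protein-coding genes. For the ETS letters CCGGAAG the shares were 22.5%, 8.86% and 11.6%, for the YY1 letters AAGATGGC 12.7%, 2.75% and 3.05%, and for the SP1 letters GGGCGG 38.0%, 35.7% and 46.2%. Of the called nuclear members 4 had a window, and those of *Ndufa8* (chr2:36049289-36049588, minus strand) and *Uqcrc1* (chr9:108936398-108936697, plus strand) are shown because they hold the NRF1 core, each 5′ to 3′ on the strand of the gene, with matches to any of the 4 motifs in capitals.
Ndufa8: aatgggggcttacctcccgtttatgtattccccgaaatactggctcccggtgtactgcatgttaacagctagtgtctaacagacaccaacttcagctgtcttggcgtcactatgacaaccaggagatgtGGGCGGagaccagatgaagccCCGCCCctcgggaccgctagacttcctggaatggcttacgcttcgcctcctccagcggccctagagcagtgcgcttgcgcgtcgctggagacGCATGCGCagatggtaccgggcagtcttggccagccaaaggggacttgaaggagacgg
Uqcrc1: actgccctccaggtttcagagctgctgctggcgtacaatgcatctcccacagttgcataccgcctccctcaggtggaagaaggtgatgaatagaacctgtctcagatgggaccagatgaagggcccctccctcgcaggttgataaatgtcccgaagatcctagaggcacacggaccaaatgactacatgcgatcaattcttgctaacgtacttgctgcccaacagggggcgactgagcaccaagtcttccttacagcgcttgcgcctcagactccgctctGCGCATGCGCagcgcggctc
In the *Ndufa8* window the NRF1 core begins 8 bases before the start, and 2 SP1 matches begin 121 and 100 bases before it. In the *Uqcrc1* window 2 matches to the NRF1 core, 1 on each strand, overlap from bases 31 and 33 after the start. The windows of *Atp5g1* and *Uqcrfs1* held none of these letters. A match is a description of the sequence and not a bound site.

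Genes that regulate, build and feed the complexes were read from lists. Of 9 nuclear regulators tested 1 was called, higher. *Ppargc1b*, a coactivator of mitochondrial biogenesis, rose by 0.84 on the log2 scale (SE 0.19; adjusted p = 0.028), whereas *Nrf1*, *Gabpa* and *Yy1* had values of 0.14, 0.13 and 0.16 and did not pass. *Pprc1* (0.50, adjusted p = 0.056) and *Myc* (0.45, adjusted p = 0.054) were closer to the threshold, and all 9 regulators tested had values above 0. *Ppargc1a*, the relative of *Ppargc1b*, was at 0.133 CPM in wt and below the filter. Of 5 further subunits and carriers 1 was called, *Cyc1*. Of 44 assembly factors 14 were higher and 1 was lower, with a median of 0.21. *Cox18*, which inserts a subunit of complex IV into the membrane, rose by 0.82 (adjusted p = 0.015), *Ecsit*, a complex I assembly factor, by 0.73 (adjusted p = 0.020) and *Coa7* by 0.65 (adjusted p = 0.030).

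Of 27 genes for replication, transcription and RNA processing of the mitochondrial genome 9 were higher and 0 lower, with a median of 0.28. They included *Elac2*, the mitochondrial tRNA 3′ processing enzyme (0.61, adjusted p = 0.026), *Fastkd3* (0.53, adjusted p = 0.015) and *Tefm*, the transcription elongation factor (0.52, adjusted p = 0.024). In the TCA cycle list 2 of 14 were higher and 2 lower. *Idh2*, the mitochondrial NADP-dependent isocitrate dehydrogenase, fell by 0.79 (adjusted p = 0.028), and it was highest in wt replicate 2, at 248 CPM against 148 and 182 CPM. *Mdh2* (0.36, adjusted p = 0.023) and *Dlst* (0.29, adjusted p = 0.036) rose. Of 16 glycolysis genes 4 were higher and 1 lower, with *Pfkl*, the liver-type phosphofructokinase, lower (log2 fold change -0.90, adjusted p = 0.0097) and *Aldoa* (0.55, adjusted p = 0.014) and the glucose transporter *Slc2a1* (0.47, adjusted p = 0.015) up. Of 10 mitochondrial antioxidant genes 2 were higher, *Sod2* (0.48, adjusted p = 0.046) and *Txn2* (0.35, adjusted p = 0.024), and 1 was lower, *Cat* (-0.60, adjusted p = 0.028), the peroxisomal catalase. In all, 34.1% of the assembly factors and 33.3% of the genes for the mitochondrial genome were called in either direction, beside 19.2% of all genes tested. The share was 31.25% for glycolysis, 30% for antioxidant genes and 28.6% for the TCA cycle. For further subunits and carriers it was 20% and for nuclear regulators 11.1%. No test of a list was made.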

How the data were processed

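RNA of sorted FL cells was sequenced in 6 libraries with a stranded mRNA kit. Per the submitters' processing notes the authors used TopHat2 2.0.10, SAMtools, HTSeq and DESeq with build mm10/GRCm38, and they deposited raw counts of reads per Ensembl gene and per exon bin. The annotation release and the counting options are not given in the sources used here. For hnRNP L deficient replicate 1, exon bins were not used here.

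Counts were normalized by TMM, filtered by filterByExpr (14396 of 38293 genes kept) and tested with edgeR 4.0.16 (R 4.3.3) by the robust quasi-likelihood test, Benjamini-Hochberg adjusted over all genes tested and called at an adjusted p under 0.05. SE is the size of the log2 fold change over the root of the F statistic. CPM are counts over the TMM-scaled library size, and CPM per kb use the principal GENCODE transcript. Exon usage was tested by edgeR's diffSpliceDGE over all bins averaging 10 reads or more, and read for units of a single gene. Nuclear copies were annotated transcripts with at least 98% identity over at least 100 bases. Both tests were tested on simulated data. In the simulated gene counts small changes were not called, so a gene that did not pass is not shown to be unchanged. An exact permutation test of 3 against 3 cannot go below p = 0.1, so none was used. Intervals for counting error alone are not given, and members with under 100 reads per library also carry counting error.

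Genes were named by a rule: all mitochondrial members, up to 4 called members per direction and complex with groups that did not overlap, the 2 smallest p where none was called, the highest level per kb, isoform genes, members below the filter, and the 3 largest called genes of each list outside the members. Other members were named to complete a group, after their values were seen. The members, lists and tests were chosen with earlier results of these data known. Replicates are separate embryos numbered in accession order. Alternatives were DESeq2 1.42.0, limma 3.58.1, other scalings and filters, and leaving out each library. A result on 1 group of complex I subunits is not reported here.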

Additional observations from a re-analysis of the deposited data

How the results depend on the processing

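No paired analysis was possible because the replicate numbers follow accession order and pair no embryos. The first part of the embryo numbers is shared by 1 wt and 1 hnRNP L deficient embryo, whose difference had medians of 0.04 over nuclear and -0.35 over mitochondrial members. The count of nuclear members called, 6, became 11 with DESeq2 and 21 with limma-voom and sample weights, and 0 to 16 with 1 library left out. The count of mitochondrial members called, 1, became 0 with no filter, 2 with limma-voom and 0 to 2 with 1 library left out. The nuclear median was -0.017 with total counts and 0.03 to 0.08 with 1 library left out, and the mitochondrial median -0.28 to -0.11. All genes called were 4134 with DESeq2, 5288 with limma-voom and 5 to 4791 with 1 library left out. Member exon bins called were 1 with limma and 0 in every fit with 1 of the 5 libraries left out.

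Some named genes that were not called changed sign. Total counts moved the median of all genes from -0.026 to -0.096, and under them *Cox6a1* was at -0.024, *Cox6b1* at -0.0068, *Cox7a2* at -0.012, *Sdha* at -0.029 and *mt-Cytb* at -0.065, and *mt-Cytb* was also at -0.0084 with a filter of at least 1 CPM. *mt-Atp6* was at 0.066 with limma-voom. With 1 library left out *Cox6a1* ranged from -0.019 to 0.115, *Cox7a2* from -0.024 to 0.112, *mt-Atp6* from -0.33 to 0.22, *mt-Cytb* from -0.025 to 0.059 and *mt-Nd3* from -0.11 to 0.24. Of the 7 called members, *Uqcrc1* (adjusted p = 0.054) and *Uqcrfs1* (0.062) were lost with total counts and *mt-Nd4* (0.092) with no filter. Each of the 7 was called in 2 of the 6 fits with 1 library left out, those without wt replicate 1 or 2.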
